A study of Ovis aries with 16 samples.

Results

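The astrocyte genes GFAP, AQP4, GJA1 and FGFR3 were followed in the frontal cortex of fetal sheep. They were taken as every probe of the array, control spots left out, whose gene name or accession is one of the 4 symbols, which gave 7 of the 15008 probes and 4 of the 1025 genes that could be named. GFAP, GJA1 and FGFR3 each had 2 probes and AQP4 had 1. RNA of 16 late-gestation fetuses was hybridized to 1-colour arrays, 1 array per fetus, with tissue taken 24 h after a stimulus of 30 min had begun. In the hypoxia control group (5 fetuses) the ewe breathed nitrogen-enriched gas through a tracheal tube during the stimulus, and in the normoxia control group (3 fetuses) no hypoxia was given. The normoxia + ketamine group (4 fetuses) and the hypoxia + ketamine group (4 fetuses) received ketamine, a blocker of the NMDA type of glutamate receptor, intravenously at 3 mg/kg shortly before the stimulus. All fetuses carried surgically placed catheters. By the methods nearly all of them were twins, and the labels do not tie fetuses to ewes, so that values of fetuses from 1 ewe may be related. The title, the sample code and the group sizes place hypoxia control replicate 1 in its group, while other label fields of the same sample name normoxia + ketamine. It was kept by its title, and results are given with it moved or left out where they rest on it.

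Astrocytes are the glial cells that ring brain vessels with their endfeet, buffer ions and water, and answer injury by a change of shape and gene expression called reactivity. GFAP is the intermediate filament protein of astrocytes and the classic marker of that reactive state. AQP4 is the water channel of the endfoot membrane, and GJA1 encodes connexin 43, the main gap junction protein that joins astrocytes to each other. FGFR3 is a fibroblast growth factor receptor found on astrocytes and their precursors.

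The probes are 60-base oligonucleotides, shown here because the probe, not the gene, is what was measured. They were printed as the array design gives them, 5′ to 3′, with capitals for the stretch that both FGFR3 probes share. Only the first 30 bases of the GFAP probe with the higher signal are given. They are in small letters, although the second GFAP probe shares all of them. The second GFAP probe starts 3 bases before it on the same target and shares 57 of its 60 bases, and the FGFR3 probes share 59 of 60, so neither pair gives independent readings of its gene. The GJA1 probes lie 200 bases apart on their target and share no run of 12 bases or more.
GFAP, first 30 bases: tagttaatttccccagaattgagttcccac
AQP4: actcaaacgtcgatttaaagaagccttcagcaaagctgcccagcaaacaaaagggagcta
GJA1: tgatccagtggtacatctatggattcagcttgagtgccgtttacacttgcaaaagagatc
GJA1, other probe: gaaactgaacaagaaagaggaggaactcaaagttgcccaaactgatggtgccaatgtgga
FGFR3: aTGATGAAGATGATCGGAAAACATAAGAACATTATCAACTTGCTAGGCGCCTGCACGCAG
FGFR3, other probe: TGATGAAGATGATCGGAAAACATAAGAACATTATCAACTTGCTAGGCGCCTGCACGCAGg
The GC content of the 7 probes lay between 43.3% and 48.3%. No other probe of the array shared a run of 20 bases with a member's probe on either strand, apart from the GFAP and FGFR3 pairs themselves. Values below are log2 normalized levels, in which a difference of 1 is a 2-fold change, and the probe with the highest mean level stands for its gene.

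Between 69.2% and 76.9% of spots were well above background on each array. The arrays were on 2 slides of 8, and every group was on both. A gene was called where the limma test, fitted over all 16 arrays, gave P under 0.05. No probe passed the Benjamini-Hochberg adjustment over the 15008 probes in any comparison, and each call below therefore holds before that adjustment only.

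GFAP was higher after hypoxia and lower where ketamine had preceded it. The levels were 9.90, 10.01 and 9.78 in the 3 normoxia control fetuses. They were 10.86, 10.56, 10.95, 10.48 and 10.55 in the 5 hypoxia control fetuses. Every hypoxia control fetus lay above every normoxia control fetus, with a gap of 0.47 between the groups. The means were 10.68 ± 0.21 (SD, n = 5) and 9.90 ± 0.12 (SD, n = 3). The difference was 0.79 ± 0.16 (SE), or 1.72-fold with a 95% interval of 1.35 to 2.20 (limma P = 0.00025, adjusted P = 0.32 over all probes; two-sided exact permutation p = 0.0357, the smallest that 5 fetuses against 3 allow). Its rank by the limma test was 8 among the 15008 probes. In this comparison 7.98% of all probes were called and 5.38% had groups that did not overlap. Within slide 1 the difference was 0.75 and within slide 2, which held 1 normoxia control fetus, it was 0.89. In a bulk sample such as this, more RNA per astrocyte and more astrocytes cannot be told apart.

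In the hypoxia + ketamine group the GFAP levels were 10.04, 9.84, 10.67 and 10.00. Of these fetuses 3 lay below every hypoxia control fetus, and replicate 3 lay inside the hypoxia control range. The group mean was 10.14 ± 0.36 (SD, n = 4), and the difference from hypoxia control was -0.54 ± 0.15 (SE), or 0.69-fold with a 95% interval of 0.55 to 0.86 (limma P = 0.0027, adjusted P = 0.41; two-sided exact permutation p = 0.0635, where 0.0159 was the smallest possible). Here 9.06% of all probes were called and 2.34% had groups that did not overlap. The difference was -0.77 within slide 1 and -0.33 within slide 2, which holds replicate 3. Without that replicate it was -0.72.

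Ketamine without hypoxia gave no GFAP call. The normoxia + ketamine fetuses were at 9.90, 9.98, 10.32 and 10.03 (mean 10.06 ± 0.18, SD, n = 4), which overlapped the normoxia control range. The difference was 0.16 with a 95% interval of -0.20 to 0.53 (exact permutation p = 0.23, where 4 fetuses against 3 cannot go below 0.0571). Of all probes 2.31% were called here and 4.47% had groups that did not overlap. Under ketamine, hypoxia and normoxia differed by 0.08 with a 95% interval of -0.26 to 0.42 (exact permutation p = 0.74), where 6.86% of all probes were called and 3.56% had groups that did not overlap. The response of GFAP to hypoxia was thus 0.79 without ketamine and 0.08 with it. The test of the difference between these responses, the interaction, was -0.70 ± 0.23 (SE; adjusted P = 0.73). It was called, as were 6.35% of all probes. It was -0.75 within slide 1 and -0.73 within slide 2, where the latter rests on 1 normoxia control fetus. The difference under ketamine without hypoxia was -0.01 within slide 1 and 0.40 within slide 2.

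**Figure D1:**
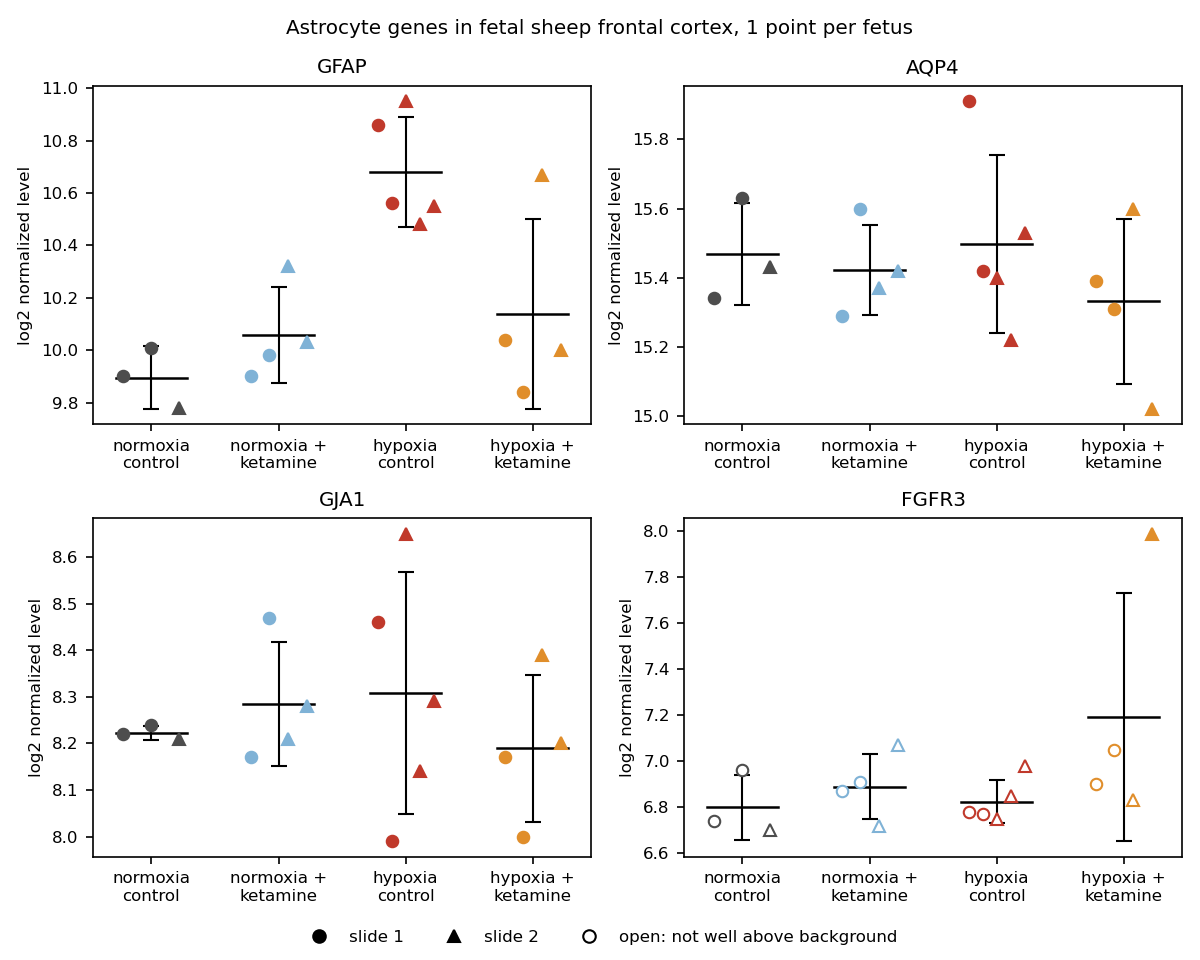
Log2 normalized level (y axes) of the 4 genes in each fetus by group (x axes); lines are group means, error bars the SD, circles slide 1, triangles slide 2, and open symbols spots not well above background. All 5 hypoxia control fetuses stand above the 3 normoxia control fetuses for GFAP, the groups overlap for AQP4 and GJA1, and FGFR3 was at background on 15 of 16 arrays.

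The other readings of the GFAP transcript moved alike. The second GFAP probe gave 0.78 for hypoxia control against normoxia control and -0.55 for hypoxia + ketamine against hypoxia control, both called (adjusted P = 0.32 and adjusted P = 0.45). A further probe has no gene name in the files and is no member, but its accession field lists the same transcript cluster as the GFAP probes, and it shares no run of 20 bases with them. It stood at 11.03, 11.26 and 10.73 in normoxia control and at 11.92, 11.71, 12.18, 11.55 and 11.66 in hypoxia control. Again all 5 hypoxia control fetuses were above the 3 normoxia control fetuses. Its differences were 0.80, -0.57 and, for the interaction, -0.74, all called (adjusted P = 0.32, adjusted P = 0.49 and adjusted P = 0.75).

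Moving hypoxia control replicate 1 to the group of its other label left GFAP called in the comparison with normoxia control, at 0.74, in that with hypoxia + ketamine, at -0.50, and in the interaction, at -0.82. Over 16 fits that each left out 1 array, the difference between hypoxia control and normoxia control stayed between 0.72 and 0.85, that between hypoxia + ketamine and hypoxia control between -0.72 and -0.44, and the interaction between -0.88 and -0.61. GFAP was called in all 3 in each of these fits.

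**Figure D2:**
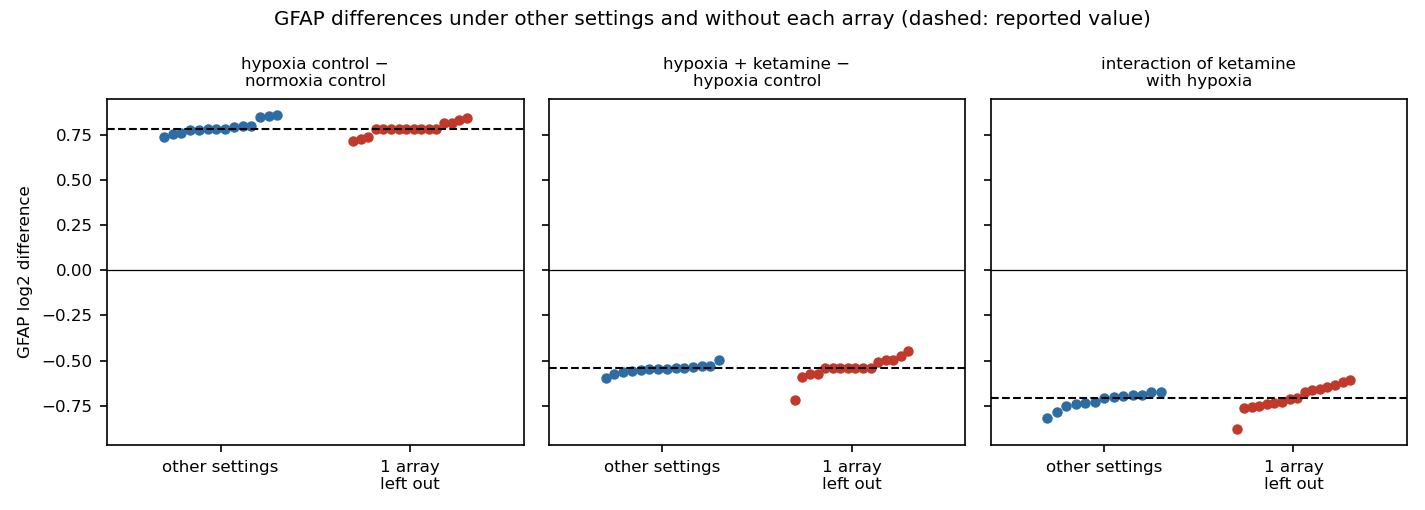
GFAP log2 differences (y axis) for 3 comparisons (panels), each point 1 other setting or probe (blue) or 1 array left out (red), with the reported value dashed. All points keep the sign of the reported value, from 0.72 to 0.86 in the first panel, -0.72 to -0.44 in the second and -0.88 to -0.61 in the third.

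AQP4, the endfoot water channel, was not called in any comparison. Its levels were 15.34, 15.63 and 15.43 in normoxia control and 15.91, 15.42, 15.40, 15.22 and 15.53 in hypoxia control. They were 15.29, 15.60, 15.37 and 15.42 in normoxia + ketamine and 15.39, 15.31, 15.60 and 15.02 in hypoxia + ketamine. All 4 groups overlapped, and the highest and lowest fetus were hypoxia control replicate 1 and hypoxia + ketamine replicate 4. The difference of hypoxia control from normoxia control was 0.03 with a 95% interval of -0.28 to 0.34, whose upper end is a 1.26-fold change. Hypoxia + ketamine differed from hypoxia control by -0.17 (95% interval -0.45 to 0.12). Normoxia + ketamine differed from normoxia control by -0.05 (95% interval -0.37 to 0.28), and hypoxia + ketamine from normoxia + ketamine by -0.09 (95% interval -0.39 to 0.21). The AQP4 spots were near the top of the scanner's range, with mean signals of 31915 to 60083 where the scanner's highest reading was 65531. None was marked saturated, but 3 of 16 arrays had saturated pixels in the spot, up to 28.3% of them in hypoxia control replicate 1. A rise above that level could not be read in full.

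GJA1, the connexin 43 gene, was not called in any comparison by either probe. The levels were 8.22, 8.24 and 8.21 in normoxia control and 8.46, 7.99, 8.65, 8.14 and 8.29 in hypoxia control. They were 8.17, 8.47, 8.21 and 8.28 in normoxia + ketamine and 8.17, 8.00, 8.39 and 8.20 in hypoxia + ketamine. The hypoxia control fetuses lay on both sides of the narrow normoxia control range, and the SDs were 0.26 and 0.016. The difference between these groups was 0.09 with a 95% interval of -0.18 to 0.36, and the second probe gave -0.07 (95% interval -0.41 to 0.27). Hypoxia + ketamine differed from hypoxia control by -0.12 (95% interval -0.37 to 0.13), and the second probe gave 0.07. The probes thus differed in sign in both comparisons, each within its interval. Normoxia + ketamine differed from normoxia control by 0.06 and hypoxia + ketamine from normoxia + ketamine by -0.09, neither of them called.

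The files also hold 2 probes named CONNEXIN 43, the protein that GJA1 encodes. They carry another name than the 4 symbols and were read beside them only. The first stood between 11.96 and 12.36 in normoxia control and between 12.04 and 12.70 in hypoxia control. Its differences were 0.21 (95% interval -0.13 to 0.54) for hypoxia control against normoxia control and -0.18 (95% interval -0.49 to 0.13) for hypoxia + ketamine against hypoxia control, and neither probe was called in any comparison. Within the hypoxia + ketamine group replicate 3 stood high on both, at 12.54 and 11.76, as it did for GFAP.

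FGFR3, the growth factor receptor, was not well above background on 15 of 16 arrays by the probe that stands for it and on all 16 by the other. The exception was hypoxia + ketamine replicate 4, at 7.99, where the other 3 fetuses of the group were at 6.90, 7.05 and 6.83. On that array the overlapping probe read 6.72 and was not well above background. No fold is given for FGFR3, since every group was at or below background, and a change in its RNA could not be read at this signal.

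**Figure D3:**
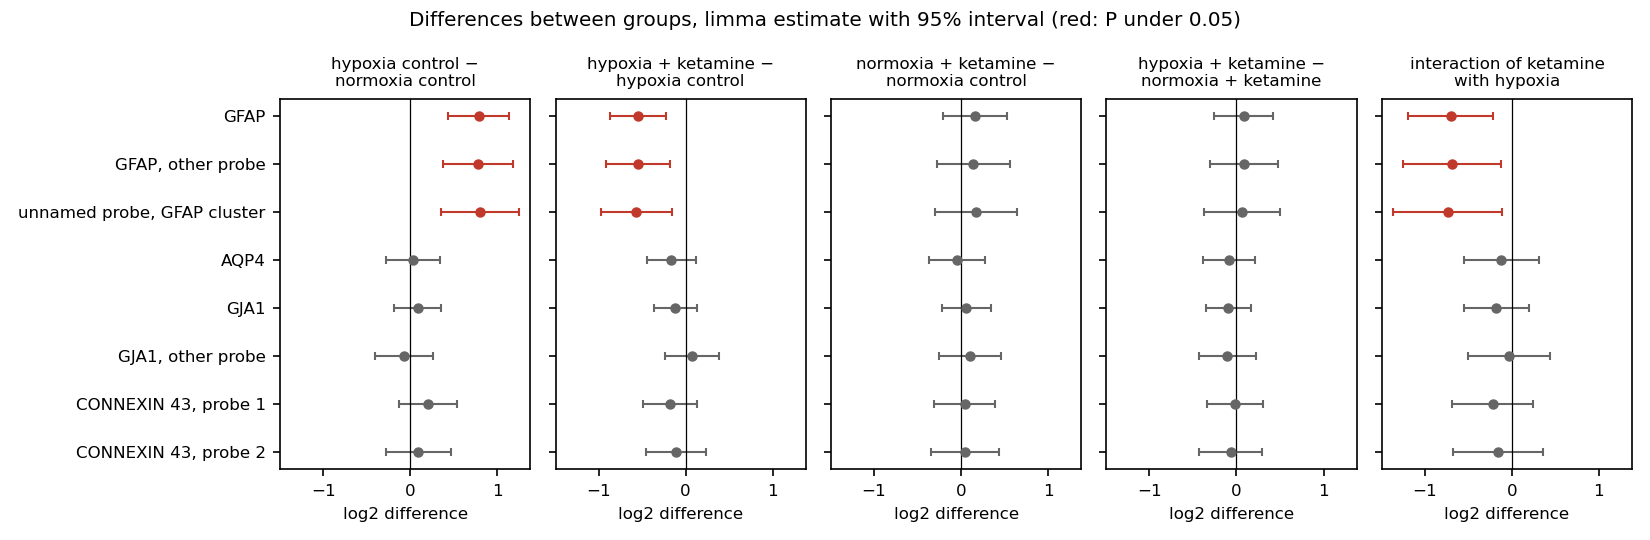
Log2 difference (x axes) with its 95% interval for each probe (y axis) in the 5 limma comparisons (panels), red where P was under 0.05. The 3 GFAP readings are red in the first 2 panels and in the interaction panel, from 0.78 to 0.80, -0.57 to -0.54 and -0.74 to -0.69, and every interval of AQP4, GJA1 and CONNEXIN 43 spans 0.

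Across the 16 fetuses the correlations among GFAP, AQP4 and GJA1 were positive and those with FGFR3 negative, and no pair passed adjustment over the 6 pairs. GFAP and GJA1 gave Pearson's r = 0.51 (permutation p = 0.043, adjusted 0.17) and Spearman's rho = 0.38 (permutation p = 0.14). That r fell to 0.07 without the 2 arrays farthest from the GFAP median, so the r of 0.51 depended on those arrays. Leaving them out also narrows the range of GFAP. GFAP and AQP4 gave r = 0.40 (permutation p = 0.12, adjusted 0.19), rho = 0.34 (permutation p = 0.19) and r = 0.23 without the 2 farthest arrays. AQP4 and GJA1 gave r = 0.48 (permutation p = 0.063, adjusted 0.17), rho = 0.63 (permutation p = 0.011) and r = 0.44 without the 2 farthest. Within slides 1 and 2 the r was 0.25 and 0.71 for GFAP and GJA1, 0.70 and 0.34 for GFAP and AQP4, and 0.75 and 0.39 for AQP4 and GJA1. After each gene was centred on its group means, so that differences between groups played no part, r was 0.65, 0.50 and 0.45 in the same order. The 3 pairs with FGFR3, which read background, gave r from -0.51 to -0.16 and are not read further.

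The 3 genes most like each measured member were sought among 636 named genes that were well above background on all arrays, by r after centring on group means. CONNEXIN 43 came first for both GFAP (r = 0.80) and GJA1 (r = 0.83). It is named for the protein that GJA1 encodes, so beside GJA1 it is not another gene. HPCAL1, a neuronal calcium sensor family gene (r = 0.77), and SHMT1 (named SHMT2 in the files; r = 0.73), an enzyme of folate metabolism, followed for GFAP. Without centring, r with GFAP was 0.74 for CONNEXIN 43, 0.20 for HPCAL1 and -0.09 for SHMT1. ADORA3, an adenosine receptor gene (r = 0.85), TIMP2, an inhibitor of matrix proteases (r = 0.77), and HPCAL1 (r = 0.71) were nearest to AQP4. VEGFR-1, a receptor for vascular growth factors (r = 0.72), and CHID1 (r = 0.72) followed CONNEXIN 43 for GJA1. These r values are the highest of many over 16 arrays that share slides and are given as a description. Of these genes, HPCAL1 was called between hypoxia + ketamine and normoxia + ketamine, at -0.31, and SHMT1 between hypoxia control and normoxia control, at -0.35. No call was made for the others in the 4 group comparisons.

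**Figure D4:**
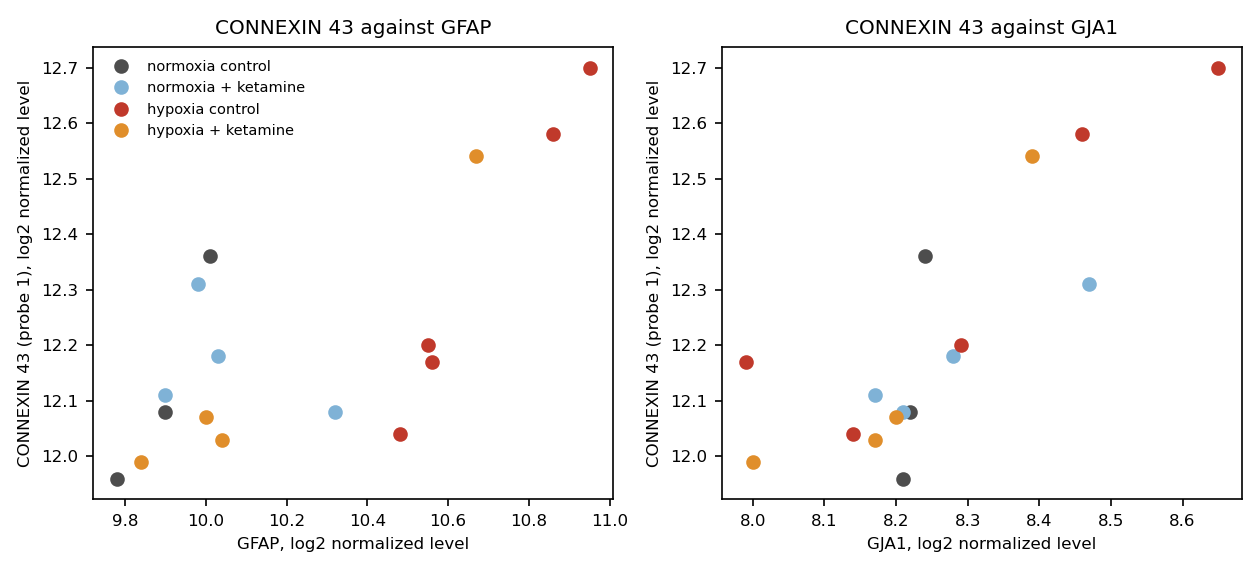
Log2 normalized level of the first CONNEXIN 43 probe (y axes) against GFAP (left x axis) and GJA1 (right x axis), 1 point per fetus, coloured by group. Hypoxia control replicates 1 and 3 and hypoxia + ketamine replicate 3 stand at the top right of both panels, at 12.58, 12.70 and 12.54 for CONNEXIN 43.

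Other genes of the astrocyte were scarce under a name on this array. Of 63 other astrocyte genes 4 were found, and none was called in any comparison: GJB2 (another connexin), MT3 (a zinc-binding metallothionein), SLC4A4 (a bicarbonate transporter) and CPE (carboxypeptidase E). The MT3 spot was marked saturated on 5 of 16 arrays, with saturated pixels on 13, and SLC4A4 was well above background on 11, so that a change in either could not be read in full. The median difference of the 4 between hypoxia control and normoxia control was -0.07, where that of all probes was -0.02, and the range was -0.47 to 0.04. Of 10 defining astrocyte markers only the 4 members were found. No gene of the endfoot complex that anchors AQP4 was found, of 17 sought.

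Of the intermediate filament genes 2 of 17 were found. VIM encodes vimentin, the filament partner of GFAP that radial glia and many other cells also make. Its spot had saturated pixels on 7 of 16 arrays and was marked saturated on 1. It stood at 15.49, 15.20 and 15.21 in normoxia control and at 15.59, 15.26, 15.65, 15.84 and 15.99 in hypoxia control, a difference of 0.36 that was not called. It was lower in hypoxia + ketamine than in hypoxia control, with a difference of -0.42 ± 0.16 (SE; adjusted P = 0.51) and overlapping groups, and its interaction was -0.62 (adjusted P = 0.75). The first of these calls was lost without hypoxia control replicate 4 (-0.37) or 5 (-0.34) and without hypoxia + ketamine replicate 2 (-0.34) or 4 (-0.30). The interaction call was lost in 5 of the 16 fits that left out 1 array, with a range of -0.76 to -0.51. The other gene, LMNB1 of the nuclear lamina, was not called.

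Of the FGF genes that act through receptors such as FGFR3, 7 of 46 were found, and 3 of these were well above background on every array. FGF2, a growth factor for astrocytes and their precursors, was at 9.42, 9.65 and 9.67 in normoxia control and at 11.03, 9.96, 10.34, 11.12 and 9.92 in hypoxia control. The groups did not overlap, and the difference was 0.89 ± 0.37 (SE; adjusted P = 0.58; exact permutation p = 0.0357). In hypoxia + ketamine the levels were 10.89, 9.14, 9.22 and 9.63, of which the first lay inside the hypoxia control range, and the difference from hypoxia control was -0.75 ± 0.34 (SE; adjusted P = 0.55). The second FGF2 probe gave 0.85 and -0.75. FGF2 was the 1 of 7 genes called in these comparisons, where 7.98% and 9.06% of all probes were called. In the first, 5.38% of all probes had groups that did not overlap. The first call was lost without normoxia control replicate 1 or 2 or hypoxia control replicate 1 or 4, and the second without 6 of the arrays in turn, with ranges of 0.73 to 1.03 and -1.14 to -0.56. FGF1, FGF18 and the receptors FGFR1 and FGFR2 were not called, with differences between -0.10 and 0.10 in both comparisons.

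Signals that switch GFAP on or steer glial fate were found for 13 of 41 genes. Of these 1 was called lower in hypoxia control than in normoxia control, TGFB1, a growth factor that acts on glia (-0.23, adjusted P = 0.60). In that comparison 7.98% of all probes were called in either direction. In hypoxia + ketamine against hypoxia control 1 of 13 was called, SMAD4, higher by 0.21 (adjusted P = 0.49), while its second probe gave 0.070. The TGFB1 call was lost in 5 of the 16 fits that left out 1 array and the SMAD4 call without hypoxia + ketamine replicate 3 (0.15). The 1 of 13 called in the second comparison stands beside 9.06% of all probes. BMP4, BMP7 and IL6 were not called in any comparison.

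Of the gap junction genes 2 of 21 were found. GJA4, a connexin of vessel walls, was lower in hypoxia control than in normoxia control (-0.22, adjusted P = 0.62). In this comparison 7.98% of all probes were called. That GJA4 call was lost in 10 of the 16 fits that left out 1 array. The second GJA4 probe gave -0.28 and was called too. GJB2 was not called. Of the water transport genes other than AQP4 9 of 18 were found, and 1 was called in 1 comparison: AQP2, the water channel of kidney collecting ducts, was higher by 0.16 in hypoxia + ketamine than in hypoxia control (adjusted P = 0.49), where its second probe gave -0.0056. That call was lost without hypoxia + ketamine replicate 1 (0.11), and 1 of 9 is near the 9.06% of all probes called there.

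Genes that reactive astrocytes are known to switch on were found for 11 of 43, and 6 were called higher in hypoxia control than in normoxia control and none lower, where 7.98% of all probes were called in either direction. They were CXCL10, a chemokine (4.14, adjusted P = 0.49), PSMB8, an immunoproteasome subunit (1.22, adjusted P = 0.39), CD14, a co-receptor for bacterial products (0.95, adjusted P = 0.32), PTX3, a pentraxin (0.94, adjusted P = 0.55), C3 of complement (0.43, adjusted P = 0.56) and TIMP1, a protease inhibitor (0.39, adjusted P = 0.54). The median over the 11 was 0.43. CXCL10, PSMB8 and CD14 were called in all 16 fits that left out 1 array, and PTX3, C3 and TIMP1 lost the call in 2, 3 and 3 of them. In hypoxia + ketamine 6 of 11 were called lower than in hypoxia control and none higher, where 9.06% of all probes were called in either direction. They were PTGS2 (cyclooxygenase-2), PTX3, C3, CD14, VIM and TIMP1, from -1.16 to -0.38, with a median over the 11 of -0.49 where that of all probes was 0.02. The second probe gave lower values for PTX3 (0.21) and TIMP1 (0.22), uncalled, in the first comparison, and smaller differences for PTX3 (-0.59) and PTGS2 (-0.21), uncalled, in the second. C3 was the only one called in normoxia + ketamine against normoxia control (0.46, adjusted P = 1.00) and in hypoxia + ketamine against normoxia + ketamine (-0.77, adjusted P = 0.43). In the second comparison C3 was called in all 16 such fits, and TIMP1, CD14, PTGS2, VIM and PTX3 lost the call in 1, 2, 3, 4 and 5. The C3 call under ketamine without hypoxia was lost in 4. In the interaction 4 of 11 were called lower and none higher, where 6.35% of all probes were called in either direction. They were C3 (-1.20), CD14 (-0.74), VIM (-0.62) and TIMP1 (-0.51). C3 kept this call in all 16 such fits, and CD14, VIM and TIMP1 lost it in 12, 5 and 3. Both comparisons with hypoxia control use the same 5 arrays. None of the 6 is made by astrocytes alone, several were known to move from earlier results of these arrays, and the list is no independent evidence of direction.

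**Figure D5:**
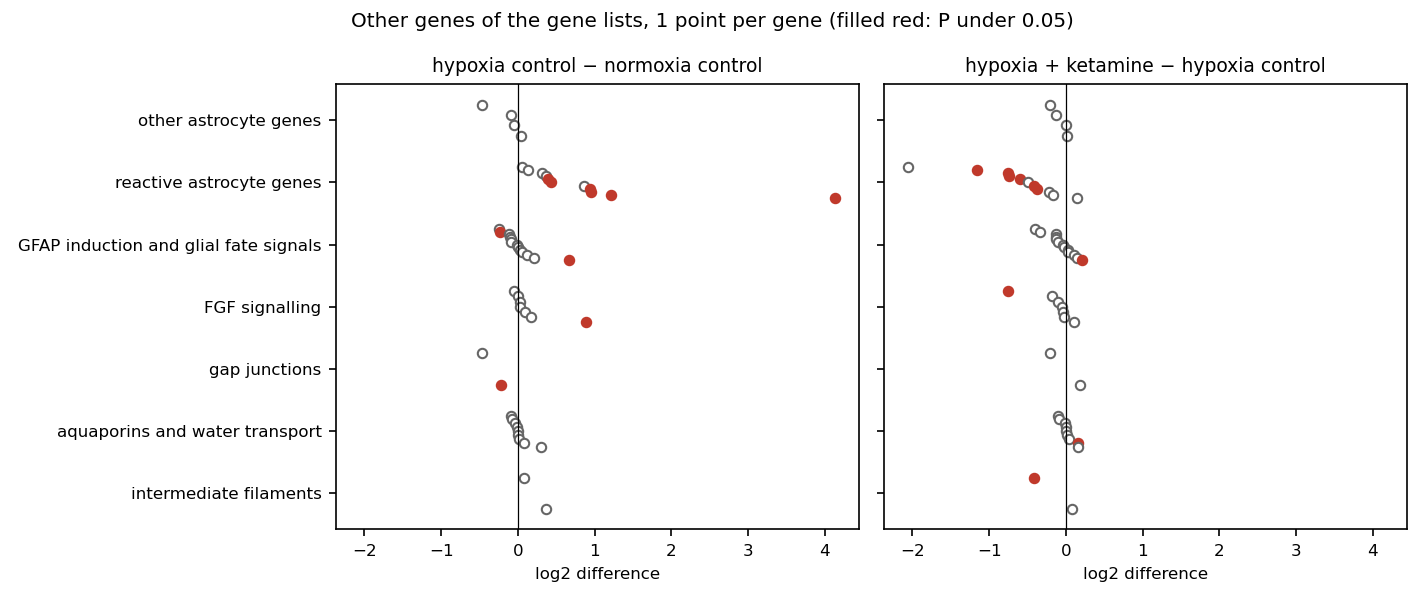
Log2 differences (x axes) of the genes of 7 lists (y axis), 1 point per gene, for hypoxia control against normoxia control (left) and hypoxia + ketamine against hypoxia control (right); filled red points had P under 0.05. The reactive astrocyte genes lie at or above 0 on the left, up to 4.14 for CXCL10, and mostly below 0 on the right, while the 4 other astrocyte genes hold no red point.

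Markers of other cells moved with GFAP in part. Of 21 microglia and macrophage genes 5 were found, and 2 of them, CD14 (0.95) and CD86 (0.60), were called higher in hypoxia control than in normoxia control, beside 7.98% of all probes. CD14 was also called lower in hypoxia + ketamine than in hypoxia control (-0.60), beside 9.06% of all probes, and in the interaction (-0.74). The interaction call of CD14 was lost in 12 of the 16 fits that left out 1 array. In the interaction 6.35% of all probes were called. The summed linear level of the 5 ranged from 3425 to 3980 in normoxia control, 3938 to 6973 in hypoxia control, 3383 to 4246 in normoxia + ketamine and 3213 to 4852 in hypoxia + ketamine. None of the 5 was at background on all arrays, but only CD14 and ITGAM are defining markers. Of 12 radial glia genes VIM and PAX6 were found, with sums of 38257 to 46799 in normoxia control, 39700 to 65715 in hypoxia control, 41954 to 54914 in normoxia + ketamine and 31153 to 52825 in hypoxia + ketamine, all overlapping. For neurons 6 of 32 genes were found, none of them a defining marker, and for oligodendrocytes 0 of 15. No neuron gene was called in the comparisons of hypoxia control with normoxia control or with hypoxia + ketamine. Between hypoxia + ketamine and normoxia + ketamine 2 of the 6 were called lower, GRIN1, an NMDA receptor subunit (-0.63), and NPY, a neuropeptide (-0.40), beside 6.86% of all probes, and GRIN1 was called in the interaction too (-0.63). Of 22 endothelial genes 11 were found, and SELE was at background throughout. In hypoxia control against normoxia control 4 of the 11 were called, beside 7.98% of all probes, with SELP (2.54) and ICAM1 (1.14), adhesion molecules for white blood cells, higher and OCLN (-0.38) and NOS3 (-0.41) lower. In hypoxia + ketamine against hypoxia control 3 were called, beside 9.06% of all probes. SELP (-1.74) and ICAM1 (-0.94) were lower and OCLN (0.43) was higher. Both comparisons use the same 5 hypoxia control arrays, so that opposite signs in them are not independent, for these genes or for GFAP. SELP was well above background on 12 of 16 arrays and ICAM1 on 11. OCLN was called in the interaction too (0.54). The summed endothelial level was 3643 to 3999 in normoxia control, 4007 to 7762 in hypoxia control, 3228 to 3751 in normoxia + ketamine and 3529 to 5058 in hypoxia + ketamine. In this sum the hypoxia control and normoxia control ranges did not overlap, but nearly met, at 4007 and 3999. Of all probes 5.38% had groups that did not overlap there. The sum includes SELP and ICAM1. The median difference of the 11 genes was 0.003, and the defining markers PECAM1 and KDR were not called. Of 16 red blood cell genes 2 were found, of which AHSP was higher in hypoxia control than in normoxia control (0.89). Of 10 choroid plexus genes 4 were found, of which TTR was lower in that comparison (-4.30). These calls stand beside 7.98% of all probes. The summed red blood cell level was 10409 to 28205 in normoxia control and 9550 to 63108 in hypoxia control, and the summed choroid plexus level was 10939 to 82619 and 9492 to 34866. Of 12 pericyte genes 3 were found. DCN among them was lower in hypoxia + ketamine than in hypoxia control (-0.66), beside 9.06% of all probes. Of 15 neutrophil genes 3 were found, none called. The part of these cells in the GFAP difference was not tested.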

How the data were processed

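Per the file headers, the authors scanned 1-colour Agilent sheep arrays with Feature Extraction 10.1.1.1, and the deposited spot values are intensity, not normalized between arrays. They also deposited log2 values after background correction and quantile normalization with limma in R 2.15.1, per the labels. These served as an alternative only. Columns of flags and saturated pixels per spot, of unit other, were used as given. Each array has 15208 spots that are not controls. Here mean signals were corrected with normexp (offset 50), log2 transformed, cleared of outlier spots, quantile normalized and averaged per probe (R 4.3.3, limma 3.58.1). Probes were named by accession, symbol or older symbol through a RefSeq gene table of assembly ARS-UI_Ramb_v3.0, giving 1656 named probes. Groups came from the titles. One limma model held all 16 arrays, called at unadjusted P under 0.05 as in the methods. Exact permutation tests over fetuses and permutation tests of correlations (100000 resamples) used scipy 1.17.1. The members and gene lists were chosen with earlier results of these data known. Genes named besides members were those called in a list and the 3 most like each member, except 1 called gene that is not reported here. The fit was tested on simulated data. The P values rest on the spread between these fetuses and treat them as independent. Nearly all were twins and the labels do not tie them to ewes, so the effect of relatedness on the P values was not tested. The number of arrays also limits their precision.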

Additional observations from a re-analysis of the deposited data

Results flagged for a closer look

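In the hypoxia + ketamine group replicate 3 stood apart from the other 3 fetuses on both CONNEXIN 43 probes, at 12.54 where the nearest fetus was at 12.07 and at 11.76 where the nearest was at 11.18. The gap took 0.85 and 0.94 of the group's range. Of 30 groups of 4 or 5 fetuses examined for such a gap 2 had one, both from this fetus. Chance gives about 1 in 20, and 2 of 30 is near that share. The 30 groups are not independent, since the same fetuses and overlapping probes recur in them. The same fetus had the highest GFAP, AQP4 and GJA1 level of its group without passing that limit.

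The GFAP difference between hypoxia control and hypoxia + ketamine differed from that between normoxia control and normoxia + ketamine by -0.70 (adjusted P = 0.73), by the test of the difference itself.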

How the results depend on the processing

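GFAP stayed called, with its sign, in the comparisons of hypoxia control with normoxia control (0.79) and with hypoxia + ketamine (-0.54) and in the interaction (-0.70) under every other setting but the Benjamini-Hochberg threshold, which none of the 3 passed at those values. Over the settings they ranged from 0.74 to 0.86, -0.59 to -0.50 and -0.82 to -0.67, and over the arrays left out from 0.72 to 0.85, -0.72 to -0.44 and -0.88 to -0.61. Its uncalled difference between the ketamine groups turned to -0.080 with hypoxia control replicate 1 moved, and ran from -0.095 to 0.18 over the arrays left out, the lowest without hypoxia + ketamine replicate 3.

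No setting called AQP4 or GJA1 in any comparison, and their small differences changed sign as follows, with causes not tested. Moving hypoxia control replicate 1 gave AQP4 -0.075 for hypoxia control and 0.052 for normoxia + ketamine, each against normoxia control. With the normexp signal scaled to the 75th percentile, where the median of all probes was -0.16, 0.21, -0.30, 0.38 and 0.51 in the 4 comparisons and the interaction (0.00045 to 0.017 and -0.0030 with the scanner's processed signal scaled alike), AQP4 was at 0.065 in normoxia + ketamine against normoxia control, and GJA1 at -0.021, 0.031, -0.24, 0.25 and 0.27 in the same order. The second GJA1 probe, an alternative chosen after seeing the data, as were the unnamed probe and CONNEXIN 43, gave -0.071 and 0.069 in the first 2 comparisons. Over the arrays left out AQP4 ran from -0.075 to 0.11, -0.26 to -0.062, -0.11 to 0.034 and -0.18 to 0.012 in the 4 comparisons, and GJA1 from -0.00016 to 0.17, -0.20 to -0.032, -0.00052 to 0.10 and -0.16 to -0.031. Of the other astrocyte genes 0 were called, or 1 without hypoxia control replicate 5, normoxia control replicate 1 or normoxia + ketamine replicate 2.

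Same-numbered arrays shared a slide. Pairs of arrays from different groups were correlated over probes after each probe was centred on its group means. Of the same-numbered pairs 6 of 21 then correlated over 0.1 (median r 0.04). Centred values sum to 0 within a group, so positive and negative r among the pairs below are not independent. On slide 1, same-numbered pairs of 1 stimulus gave r of 0.35, 0.26, 0.26 and 0.37. Those with unequal numbers gave -0.18, -0.19, -0.30 and -0.25. On slide 2 same-numbered pairs of 1 stimulus gave 0.04, -0.11 and 0.05, and the others ran from -0.079 to 0.20. Whether the numbers pair fetuses was not tested, and the main fit did not pair them. The replicate block gave GFAP 0.86, -0.58 and -0.78 and changed no call of the 3 measured members, while AQP4 turned to 0.018 in normoxia + ketamine against normoxia control.

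The correlations depended on the setting. That of GFAP and GJA1 lost its P under 0.05 with the scanner's processed signal after quantile normalization (r = 0.45), normexp with 75th percentile scaling (0.41), slide centring (0.47) and the replicate block (0.43), and ran from 0.30 to 0.68 over the arrays left out. That of GFAP and AQP4 passed with slide centring (0.53) and with group and slide centring (0.65), and ran from 0.18 to 0.49. That of AQP4 and GJA1 passed with the scanner's processed signal (0.50 after quantile normalization, 0.54 after scaling), slide centring (0.59), the replicate block (0.57) and group and slide centring (0.57), turned to -0.23 with normexp and 75th percentile scaling, and ran from 0.38 to 0.65. FGFR3, read at background, was left out of these refits.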
